A study of Homo sapiens with 8 samples.

Results

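The genes described here are 43 listed targets of the transcription factor ATF4, in 4 sub-groups: 11 enzymes of amino acid and one-carbon metabolism, 8 amino acid transporters, 12 cytosolic tRNA synthetase genes with the tRNA exporter XPOT (13 in all), and 11 stress effectors. A gene was read at the probe set, a group of array probes summarised as 1 value, that carried its symbol alone and had the highest mean over the 8 arrays. By that rule 41 of the 43 genes were measured, of 19775 genes in all. GPT2 was not listed in the annotation used here and MARS1 was listed only with a second symbol, so neither was analysed, which left 10 enzymes and 12 tRNA genes. RNA was measured in 4 groups of 2 arrays: MDA-MB-231 with shXBP1, MDA-MB-231 with shCtrl, T47D with shXBP1 and T47D with shCtrl. MDA-MB-231 is a triple-negative breast cancer line with mesenchymal features, and T47D is an oestrogen receptor-positive luminal line. The cells of all 4 groups were infected with a lentivirus that carried a hairpin against XBP1 or a control hairpin, and infected cells were kept in 2 ug/ml puromycin. All of them then spent 24 h at 0.1% oxygen in medium with serum but no glucose, so every comparison is between stressed cells, and unstressed cells were not analysed here. The labels call the replicates biological without saying whether they were separate infections, so the p-values rest on the scatter among these arrays, and part or all of that scatter may be technical.

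ATF4 is made when kinases such as PERK, on the endoplasmic reticulum (ER), and GCN2, which senses uncharged tRNA, phosphorylate the initiation factor eIF2 and slow translation at large. It binds DNA as a dimer with C/EBP proteins, at a composite sequence called the C/EBP-ATF response element, and switches on genes that make, import and load amino acids onto tRNA, along with effectors of stress adaptation and cell death. XBP1 belongs to another arm of the unfolded protein response, in which the ER sensor IRE1 splices XBP1 mRNA and the resulting factor raises ER folding and degradation capacity. The comparisons ask how the ATF4 target genes stand in cells depleted of XBP1, and whether the sub-groups and the lines do so alike.

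The C/EBP-ATF response element was searched for as TGATGNAA, or TTNCATCA for the other strand, in the window from 250 bases before to 50 after the start of each gene (RefSeq, GRCh38.p14). Promoters were in the table for 34 of the 43 genes, and 11 of them (32.4%) held a match, against 1270 of all 35116 promoters in the table (3.62%). Only the first promoter entry of a gene in the lists was read, whereas the background counts every entry, so the units may differ. The tRNA genes held most of the matches, 6 of 11 (AARS1, CARS1, IARS1, MARS1, NARS1 and TARS1). The share was 2 of 7 transporters (SLC7A1 and SLC3A2), 2 of 9 effectors (CHAC1 and FGF21) and 1 of 7 enzymes (ASNS, 14.3%). Outside the target list it was 3 of 14 other amino acid and folate enzymes (21.4%) and 2 of 15 other amino acid transporters (13.3%). It was 2 of 17 other genes of the stress pathway (11.8%), 1 of 14 mitochondrial tRNA synthetase genes (7.14%) and 0 of 9 other cytosolic ones. The matches that follow are those of the 5 targets that passed the test in at least 1 knockdown comparison. That of ASNS, the textbook ATF4 target, which passed in neither, comes after them. Each is written in the direction of its gene, and capitals mark the match.
CARS1: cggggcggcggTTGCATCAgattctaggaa
TARS1: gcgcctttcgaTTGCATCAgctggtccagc
AARS1: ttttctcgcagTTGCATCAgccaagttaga
NARS1: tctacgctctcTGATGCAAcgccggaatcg
SLC3A2: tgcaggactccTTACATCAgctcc
ASNS: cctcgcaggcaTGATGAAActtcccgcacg
The CARS1 stretch is chr11:3057407-3057436 (minus strand), with the match at -2 to 6 counted from the gene's start, and the TARS1 stretch is chr5:33440956-33440985 (plus strand), with the match at 3 to 10. The AARS1 stretch is chr16:70289675-70289704 (minus strand), with the match at -187 to -180, and the NARS1 stretch is chr18:57621804-57621833 (minus strand), with the match at 15 to 22. The SLC3A2 stretch is chr11:62881725-62881748 (plus strand), with the match at 38 to 45, and the ASNS stretch is chr7:97872458-97872487 (minus strand), with the match at -68 to -61. CARS1, TARS1 and AARS1 carry the same 8 letters, TTGCATCA, and NARS1 carries their reverse complement. The wider AARS1 promoter, 250 bases that end at the gene's start (chr16:70289507-70289756, minus strand), is shown because AARS1 rose in T47D with its match far upstream, whereas those of CARS1 and TARS1 lie at the start.
AARS1 promoter: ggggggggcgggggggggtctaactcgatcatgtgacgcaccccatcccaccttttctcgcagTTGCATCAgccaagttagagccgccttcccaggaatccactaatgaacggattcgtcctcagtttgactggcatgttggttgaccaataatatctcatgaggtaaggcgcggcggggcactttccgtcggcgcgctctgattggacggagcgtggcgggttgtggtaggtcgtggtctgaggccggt
The core of the XBP1 element, TGACGTG or CACGTCA on the other strand, was in 1 of the 34 promoters (ALDH18A1), against 692 of all 35116 (1.97%). A match is a description of the letters in this window and not a binding site.

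The hairpin check came first. XBP1 read 7.13 and 6.69 on the shXBP1 arrays of MDA-MB-231 against 10.83 and 10.69 on its shCtrl arrays, and 7.52 and 7.16 against 12.41 and 12.56 in T47D, and all values here and below are log2 expression. The 4 shXBP1 arrays all lay below the 4 shCtrl arrays, with a change of -3.85 in MDA-MB-231 and -5.15 in T47D, or -1.83 and -2.69 with the mean over its probe sets. Replicate arrays correlated at 0.9957 to 0.9977 over genes, and no pair was identical. Of 11 luminal markers, 4 were over the median of all probe sets (5.957) in MDA-MB-231 and 11 in T47D, and of 10 mesenchymal markers 8 or 9 were over it in MDA-MB-231 and 2 or 3 in T47D. Of 7 leukocyte markers 2 were over it in every group, with CD79A at 7.06 to 7.28 as the brightest and the defining gene PTPRC near 4, and 0 passed in either knockdown comparison (2 had an unadjusted p under 0.05 in MDA-MB-231 and 0 in T47D). Of 8 fibroblast markers 4 were over it in every group, with COL1A1 the brightest at 9.12 to 9.97. With shXBP1 in T47D COL1A1 was higher by 0.70 and 1 other fibroblast marker was lower, at -0.31. That is 25% of the list, beside 29.1% of all genes, and in MDA-MB-231 0 passed. The mean of the 8 fibroblast markers was 6.05 and 5.99 on the shXBP1 arrays against 5.93 and 6.01 on the shCtrl arrays of MDA-MB-231, and 5.87 and 5.93 against 5.85 and 5.88 in T47D. Of 12 luminal markers, XBP1 among them, 3 rose and 5 fell with shXBP1 in T47D (66.7%, beside 29.1% of all genes). In MDA-MB-231 2 rose and 2 fell (33.3%, beside 17.2%). Of the 10 mesenchymal markers 1 rose and 2 fell in T47D, and 1 rose and 1 fell in MDA-MB-231. The 3' minus 5' signal of ACTB, which tracks how intact the RNA was, averaged 0.998 with shXBP1 and 1.256 with shCtrl in MDA-MB-231, and 1.119 with shXBP1 and 1.002 with shCtrl in T47D. The part of these in the changes below was not tested.

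Some ATF4 targets changed with XBP1 knockdown in each line, and at the brightest probe set 4 of the 11 effectors did so in opposite directions. In MDA-MB-231, 15 of the 41 measured targets passed limma's test at an adjusted p under 0.05, 7 higher and 8 lower with shXBP1 than with shCtrl, against 17.2% of all genes (10.6% higher and 6.68% lower). In T47D 23 passed, 17 higher and 6 lower, against 29.1% of all genes (15.5% higher and 13.5% lower). These shares, 36.6% and 56.1%, should be read with the brightness of the targets in view, since 24.3% (MDA-MB-231) and 40.9% (T47D) of genes with a mean over the median of all probe sets passed. All targets but SLC6A9 and FGF21 lay over that median. The difference of the knockdown effects, MDA-MB-231 minus T47D, passed for 19 targets (46.3%), 8 higher and 11 lower, against 24.8% of all genes (13.0% higher and 11.8% lower) and 34.3% of the brighter ones. At the brightest probe set of each gene, PSPH, SLC38A2, TARS1 and WARS1 passed as higher in both lines, as did 3.32% of all genes, and CBS and SLC1A4 as lower in both, as did 1.93%. At that probe set no target passed as higher in MDA-MB-231 and lower in T47D, beside 1.71% of all genes, and 13 of the 41 passed in neither line, beside 62.4%. The median change of the 41 targets was 0.08 in MDA-MB-231 and 0.19 in T47D, beside 0.03 and -0.02 over all genes. The MDA-MB-231 calls were less stable, and 8 targets passed without MDA-MB-231 shCtrl replicate 1, where 10.4% of all genes did. In T47D the 17 higher calls became 10 without shXBP1 replicate 1. In RNA from a whole culture, a change in the cells present and a change in RNA per cell cannot be told apart.

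**Figure D1:**
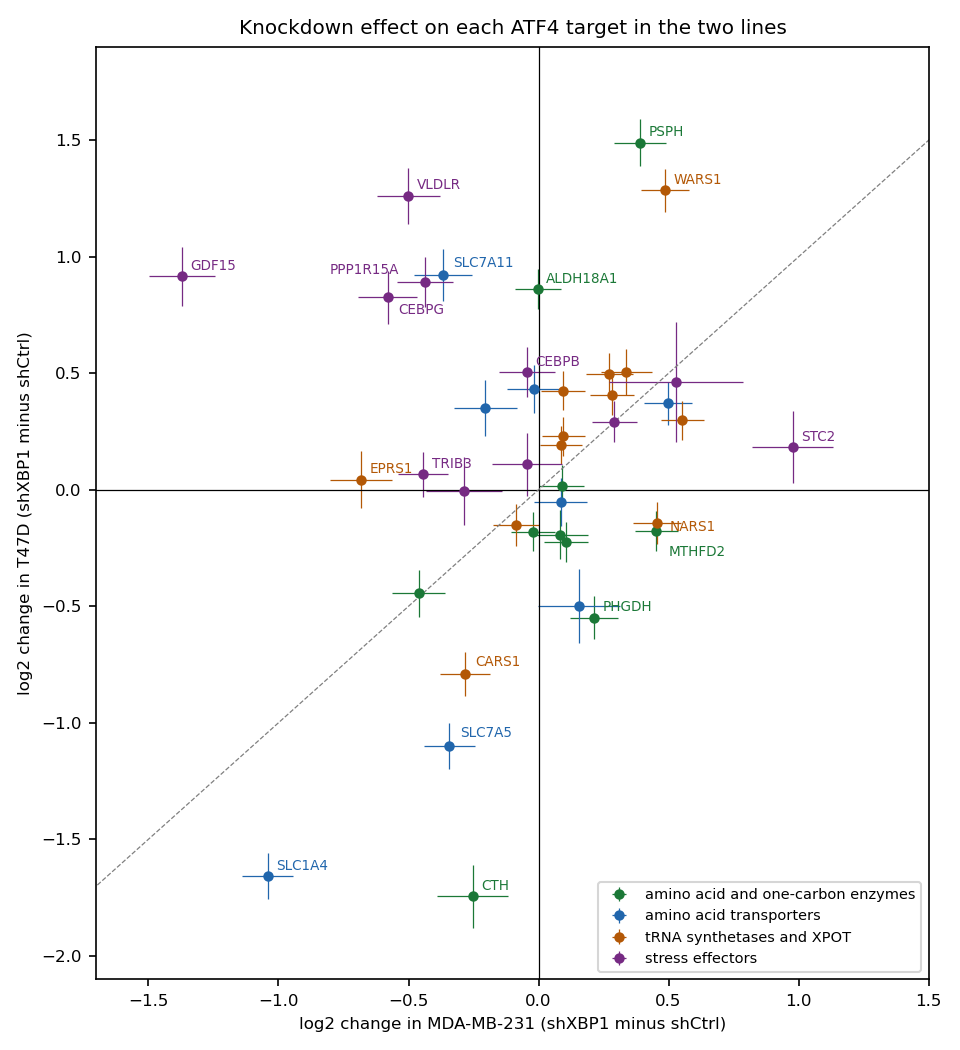
Log2 change with shXBP1 against shCtrl in MDA-MB-231 (horizontal axis) and in T47D (vertical axis) for the 41 targets, coloured by sub-group, with bars of 1 standard error on each side. Named genes passed the test of the difference between the lines, and the dashed line marks equal changes. VLDLR, CEBPG, PPP1R15A and GDF15 lie at upper left, higher in T47D and lower in MDA-MB-231, and CTH and SLC1A4 lie at the bottom.

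Most effectors that passed in MDA-MB-231 were lower with shXBP1, and all that passed in T47D were higher with it. In MDA-MB-231 5 fell, 1 rose and 5 did not pass, with a median change of -0.29, and in T47D 6 rose, 0 fell and 5 did not pass, with a median of 0.46. At the brightest probe set 8 effectors passed in either line or both. Of these 8, VLDLR, CEBPG, PPP1R15A and GDF15 both fell in MDA-MB-231 and rose in T47D. At that probe set 0 of the 30 targets outside the effectors did so, beside 1.70% of all genes and 2.60% of the brighter ones. With the mean over probe sets GDF15 did not pass in T47D. The transporter SLC7A11 (-0.75 in MDA-MB-231 and 0.53 in T47D) and the tRNA gene YARS1 (-0.54 and 0.31) then passed in those directions. The test of the difference passed for 7 effectors, 6 lower and 1 higher. In T47D with shXBP1, 8 of the 11 effectors had their highest group mean, as did 19 of all 41 targets. The share over all genes was not taken. Among these 8 effectors TRIB3, STC2 and NUPR1 did not pass in T47D, so the rank does not in itself show a knockdown effect. GDF15, a secreted stress cytokine, read 9.54 and 9.26 on the shXBP1 arrays of MDA-MB-231 against 10.78 and 10.77 on its shCtrl arrays, and 11.49 and 11.39 against 10.40 and 10.65 in T47D. Its groups did not overlap in either line, with the shXBP1 arrays lowest in MDA-MB-231 and highest in T47D. The change was -1.37 (SE 0.13, adjusted p = 0.000546) in MDA-MB-231 and 0.92 (SE 0.13, adjusted p = 0.00127) in T47D, and the difference -2.29 (SE 0.18, adjusted p = 0.000254) was the largest of the 41 targets. Both other GDF15 probe sets lay under the median of all probe sets, at means of 5.52 and 5.10 over the arrays, and gave -0.43 and -0.74 in MDA-MB-231 and -0.18 and 0.27 in T47D, so the rise in T47D rests on 1 probe set. GDF15 read as the mean of its probe sets stood at -0.85 (adjusted p = 0.00268) in MDA-MB-231 and 0.33 (adjusted p = 0.0777) in T47D, and the difference at -1.18 (adjusted p = 0.00195).

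VLDLR, a lipoprotein receptor that takes up lipid, read 6.82 and 6.94 on the shXBP1 arrays of MDA-MB-231 against 7.51 and 7.26 on its shCtrl arrays, and 9.20 and 9.00 against 7.87 and 7.81 in T47D. The T47D shXBP1 arrays stood over all other arrays, and the groups did not overlap in either line. VLDLR changed by -0.50 (SE 0.12, adjusted p = 0.0268) in MDA-MB-231 and by 1.26 (SE 0.12, adjusted p = 0.000223) in T47D, a difference of -1.76 (SE 0.17, adjusted p = 0.000472). CEBPG encodes a C/EBP protein that dimerises with ATF4, and read 10.23 and 9.98 on the shXBP1 arrays of MDA-MB-231 against 10.75 and 10.61 on its shCtrl arrays, and 10.90 and 10.91 against 10.00 and 10.15 in T47D. Each pair of arrays was clear of the other pair of its line, and the order of the hairpins was turned round between the lines. The change was -0.58 (SE 0.11, adjusted p = 0.0118) in MDA-MB-231 and 0.83 (SE 0.11, adjusted p = 0.00118) in T47D, with a difference of -1.41 (SE 0.16, adjusted p = 0.000882). PPP1R15A encodes GADD34, which guides the phosphatase that removes phosphate from eIF2 and so lets translation resume. It read 10.60 and 10.44 on the shXBP1 arrays of MDA-MB-231 against 11.04 and 10.87 on its shCtrl arrays, and 10.62 and 10.56 against 9.62 and 9.77 in T47D. The T47D shCtrl arrays were lowest of all, and the shXBP1 arrays of both lines lay close together. PPP1R15A changed by -0.44 (SE 0.11, adjusted p = 0.0298) in MDA-MB-231 and by 0.89 (SE 0.11, adjusted p = 0.000660) in T47D, with a difference of -1.33 (SE 0.15, adjusted p = 0.000903).

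The falls of these genes in MDA-MB-231 were less secure than the rises in T47D, except that of GDF15. The VLDLR call in MDA-MB-231 was lost without MDA-MB-231 shCtrl replicate 1 (0.131), MDA-MB-231 shXBP1 replicate 1 (0.124) or MDA-MB-231 shXBP1 replicate 2 (0.0555), where the values are adjusted p, and the CEBPG call without MDA-MB-231 shCtrl replicate 1 (0.0673). The PPP1R15A call there was lost without T47D shXBP1 replicate 1 (0.0588), T47D shXBP1 replicate 2 (0.0588), MDA-MB-231 shCtrl replicate 1 (0.143), MDA-MB-231 shXBP1 replicate 1 (0.0508) or MDA-MB-231 shXBP1 replicate 2 (0.114). With only the MDA-MB-231 arrays in the fit the adjusted p of its change was 0.0745 for VLDLR, 0.0507 for CEBPG, 0.0922 for PPP1R15A and 0.00566 for GDF15. The difference between the lines passed for all 4 genes without any 1 array.

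**Figure D2:**
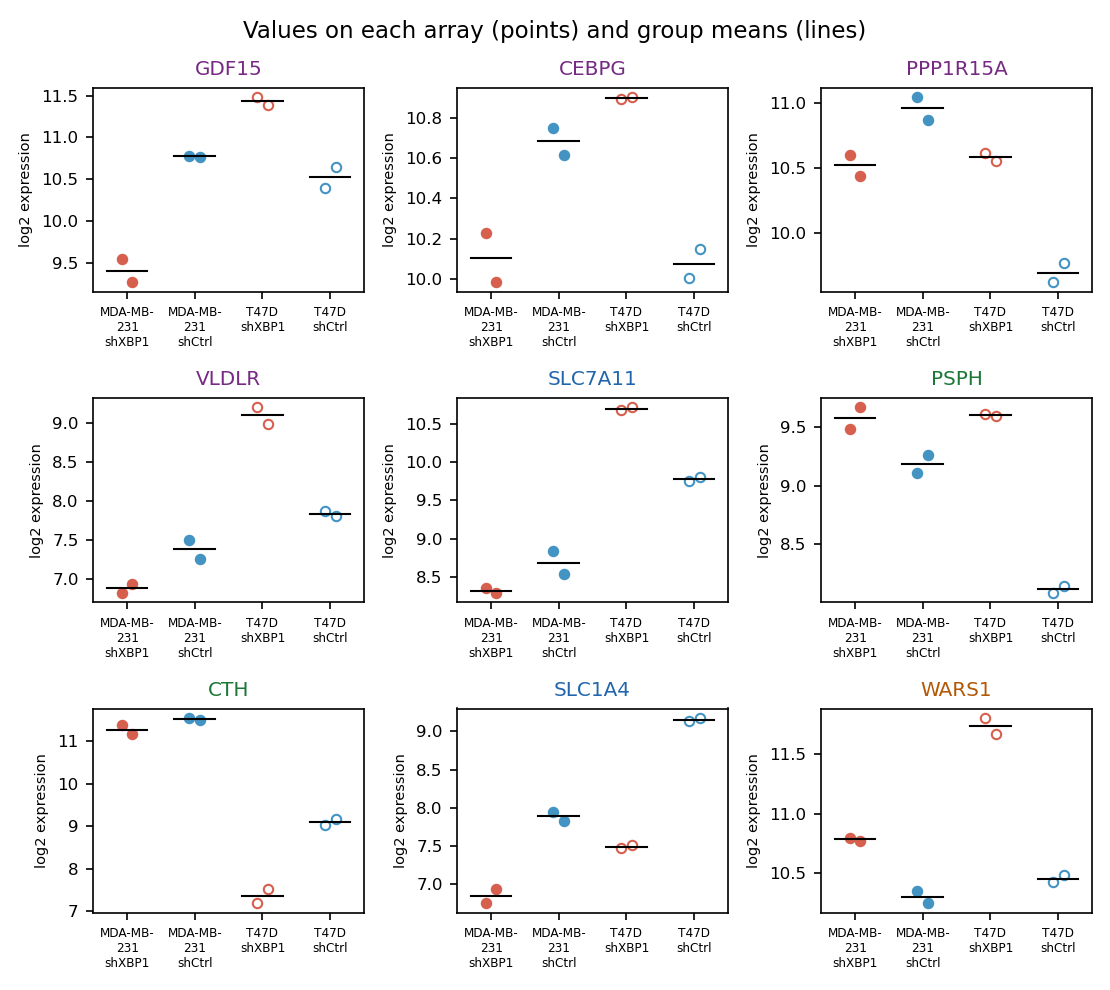
Log2 expression (vertical axes) on each of the 8 arrays for 9 targets, by group; red is shXBP1 and blue shCtrl, filled points are MDA-MB-231 and open points T47D, and black lines are group means. GDF15, CEBPG, PPP1R15A and VLDLR were lower with shXBP1 in MDA-MB-231 and higher with it in T47D. PSPH and WARS1 were higher and SLC1A4 was lower in both.

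The other effectors followed no common course. STC2, a secreted glycoprotein named stanniocalcin 2, read 8.66 and 8.21 on the shXBP1 arrays of MDA-MB-231 against 7.59 and 7.33 on its shCtrl arrays, and 11.05 and 11.09 against 10.86 and 10.91 in T47D. Its T47D arrays were all high and close together, and its MDA-MB-231 arrays were low, with the shXBP1 pair over the shCtrl pair. STC2 rose by 0.98 (SE 0.16, adjusted p = 0.00494) in MDA-MB-231 and stood at 0.18 (SE 0.16, adjusted p = 0.456) in T47D. TRIB3, a pseudokinase that restrains ATF4 and CHOP, fell by 0.44 in MDA-MB-231 (adjusted p = 0.0185) and stood at 0.07 in T47D (adjusted p = 0.681). CEBPB, which encodes another dimer partner, stood at -0.04 in MDA-MB-231 (adjusted p = 0.842) and rose by 0.50 in T47D (adjusted p = 0.00925). EIF4EBP1, whose product holds back cap-dependent translation, had the same change of 0.29 in both lines, which passed in T47D (adjusted p = 0.0380) and not in MDA-MB-231 (adjusted p = 0.0572). NUPR1, a stress-induced chromatin protein, read 10.23 and 9.87 on the shXBP1 arrays of MDA-MB-231 against 10.01 and 10.18 on its shCtrl arrays, and 12.93 and 12.90 against 12.73 and 12.88 in T47D. Its hairpin groups overlapped in MDA-MB-231 and were apart by less than 0.05 in T47D, while every T47D array lay over every MDA-MB-231 array. NUPR1 stood at -0.04 in MDA-MB-231 (adjusted p = 0.870) and 0.11 in T47D (adjusted p = 0.625). CHAC1, which breaks down glutathione, had a wide spread, from 6.42 to 7.37 in MDA-MB-231 and from 6.25 to 7.04 in T47D, and the hormone gene FGF21 read 5.52 to 6.06, at the level of dim probe sets. Neither passed, although CHAC1 did in MDA-MB-231 (adjusted p = 0.0286) when MDA-MB-231 shXBP1 replicate 2 was left out and FGF21 (adjusted p = 0.0350) when MDA-MB-231 shXBP1 replicate 1 was.

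Several of these calls hung on single arrays. The TRIB3 fall in MDA-MB-231 was lost without MDA-MB-231 shCtrl replicate 1 (0.0904) or MDA-MB-231 shXBP1 replicate 2 (0.0711), again as adjusted p, and the CEBPB rise in T47D without T47D shCtrl replicate 1 (0.0642) or T47D shXBP1 replicate 1 (0.0661). The EIF4EBP1 rise in T47D was lost without any 1 T47D array or either MDA-MB-231 shCtrl array (adjusted p = 0.0536 to 0.198). The difference between the lines stood at 0.79 for STC2, -0.51 for TRIB3 and -0.55 for CEBPB. The second STC2 probe set, nearly as bright (a mean of 9.17 over the arrays, against 9.46), gave 0.40 in MDA-MB-231, which did not pass, and a difference of 0.07. The difference at the mean of the probe sets was 0.43 (adjusted p = 0.176) for STC2 and -0.44 (adjusted p = 0.0741) for TRIB3. At its brightest probe set, the STC2 difference was lost without any of 6 arrays, all but MDA-MB-231 shCtrl replicate 1 and its shXBP1 replicate 2 (adjusted p = 0.0644 to 0.103). That of TRIB3 was lost without any of 6, all but MDA-MB-231 shCtrl replicate 2 and shXBP1 replicate 1 (adjusted p = 0.0599 to 0.113). That of CEBPB was lost without any of 6, all but either line's shCtrl replicate 2 (adjusted p = 0.0595 to 0.115).

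Of the 10 enzymes, some rose and some fell in each line. In MDA-MB-231 2 rose (PSPH and MTHFD2), 1 fell (CBS) and 7 did not pass, and in T47D 2 rose (PSPH and ALDH18A1), 3 fell (CTH, PHGDH and CBS) and 5 did not pass. The median change was 0.09 in MDA-MB-231 and -0.19 in T47D. In serine synthesis, the first and the last enzyme moved apart in T47D. PSPH, the phosphatase that releases serine in the last step, read 9.48 and 9.67 on the shXBP1 arrays of MDA-MB-231 against 9.11 and 9.26 on its shCtrl arrays, and 9.61 and 9.59 against 8.08 and 8.14 in T47D. The shCtrl arrays of T47D were lowest, and with shXBP1 both lines reached about the same level. PSPH rose by 0.39 (SE 0.10, adjusted p = 0.0365) in MDA-MB-231 and by 1.49 (SE 0.10, adjusted p = 6.48e-05) in T47D. PHGDH, which commits glycolytic carbon to serine in the first step, read 11.50 and 11.33 on the shXBP1 arrays of MDA-MB-231 against 11.17 and 11.24 on its shCtrl arrays, and 9.35 and 9.41 against 9.93 and 9.93 in T47D. Every MDA-MB-231 array lay over every T47D array, and in T47D the shXBP1 pair was the lower. PHGDH stood at 0.21 (SE 0.09, adjusted p = 0.169) in MDA-MB-231 and fell by 0.55 in T47D (SE 0.09, adjusted p = 0.00315), and the difference was 0.76 (SE 0.13, adjusted p = 0.00479). PSAT1, the aminotransferase between them, stood at -0.02 (adjusted p = 0.896) and -0.18 (adjusted p = 0.164). The PSPH call in MDA-MB-231 was lost without any 1 array but MDA-MB-231 shXBP1 replicate 1 (adjusted p = 0.0509 to 0.165). A second PSPH probe set, nearly as bright (a mean of 9.07 over the arrays, against 9.12), gave -0.02 in MDA-MB-231 and 1.65 in T47D, and with the mean over probe sets PSPH stood at 0.02 (adjusted p = 0.914) in MDA-MB-231 and 1.12 (adjusted p = 6.99e-05) in T47D. The rise in MDA-MB-231 thus rests on 1 probe set.

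The enzymes that make cysteine from homocysteine were lower in T47D with shXBP1. CTH, the cystathionine lyase that releases cysteine, read 11.38 and 11.17 on the shXBP1 arrays of MDA-MB-231 against 11.55 and 11.50 on its shCtrl arrays, and 7.18 and 7.53 against 9.02 and 9.18 in T47D. The MDA-MB-231 arrays all lay well over the T47D arrays, and the T47D shXBP1 pair was the lowest. CTH stood at -0.25 (SE 0.14, adjusted p = 0.264) in MDA-MB-231 and fell by 1.75 in T47D (SE 0.14, adjusted p = 9.94e-05), a 3.35-fold difference, and the effects differed by 1.49 (SE 0.19, adjusted p = 0.00142). CBS, which forms the cystathionine that CTH splits, read 9.46 and 9.55 on the shXBP1 arrays of MDA-MB-231 against 9.99 and 9.95 on its shCtrl arrays, and 8.08 and 7.85 against 8.40 and 8.42 in T47D. Its shXBP1 arrays were below its shCtrl arrays in each line, and its MDA-MB-231 arrays were all over its T47D arrays. CBS changed by -0.46 (SE 0.10, adjusted p = 0.0191) in MDA-MB-231 and -0.44 (SE 0.10, adjusted p = 0.0126) in T47D. The call in MDA-MB-231 was lost without MDA-MB-231 shCtrl replicate 1 (0.0837), MDA-MB-231 shCtrl replicate 2 (0.0589) or MDA-MB-231 shXBP1 replicate 1 (0.0887) and that in T47D without T47D shCtrl replicate 1 (0.0534), T47D shCtrl replicate 2 (0.0643) or T47D shXBP1 replicate 2 (0.0988), as adjusted p. CBS read as the mean of its probe sets stood at -0.36 (adjusted p = 0.0820) in MDA-MB-231.

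Of the proline and folate enzymes, ALDH18A1 passed in T47D and MTHFD2 in MDA-MB-231. ALDH18A1, which starts proline synthesis from glutamate, read 11.16 and 11.20 on the shXBP1 arrays of MDA-MB-231 against 11.14 and 11.22 on its shCtrl arrays, and 11.21 and 11.21 against 10.29 and 10.41 in T47D. Its T47D shCtrl arrays were low and all the others about equal. ALDH18A1 stood at -0.00 (SE 0.09, adjusted p = 0.993) in MDA-MB-231 and rose by 0.86 (SE 0.09, adjusted p = 0.000291) in T47D, with a difference of -0.86 (SE 0.12, adjusted p = 0.00215). MTHFD2, a mitochondrial enzyme of the folate cycle, read 13.00 and 13.07 on the shXBP1 arrays of MDA-MB-231 against 12.62 and 12.55 on its shCtrl arrays, and 13.37 and 13.42 against 13.56 and 13.59 in T47D. The MDA-MB-231 shXBP1 pair lay over the shCtrl pair, and the T47D pairs, higher still, had the opposite order. MTHFD2 rose by 0.45 (SE 0.08, adjusted p = 0.00966) in MDA-MB-231, or adjusted p = 0.0566 with only that line in the fit, and stood at -0.18 (SE 0.08, adjusted p = 0.170) in T47D, and the difference was 0.63 (SE 0.12, adjusted p = 0.00726). The dimmer MTHFD2 probe set (a mean of 7.55 over the arrays) gave 0.58 in MDA-MB-231 and -1.13 in T47D. With the mean over both, MTHFD2 passed in both lines in opposite directions, at 0.52 (adjusted p = 0.00573) in MDA-MB-231 and -0.65 (adjusted p = 0.000899) in T47D, and the difference was 1.17 (adjusted p = 0.000496). SHMT2, which passes carbon from serine to folate, PYCR1, the last enzyme of proline synthesis, and the asparagine synthetase ASNS did not pass in either line, with changes between 0.08 and 0.11 in MDA-MB-231 and between -0.22 and 0.02 in T47D.

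Of the 8 transporters, in MDA-MB-231 1 rose (SLC38A2), 1 fell (SLC1A4) and 6 did not pass, and in T47D 3 rose (SLC7A11, SLC3A2 and SLC38A2), 2 fell (SLC1A4 and SLC7A5) and 3 did not pass. The median change was -0.11 in MDA-MB-231 and 0.15 in T47D. SLC1A4, a carrier of alanine, serine and cysteine, read 6.75 and 6.95 on the shXBP1 arrays of MDA-MB-231 against 7.95 and 7.83 on its shCtrl arrays, and 7.47 and 7.52 against 9.13 and 9.17 in T47D. At this probe set, its brightest, the shXBP1 arrays were below the shCtrl arrays in both lines, by over 0.8 throughout. SLC1A4 changed by -1.04 (SE 0.10, adjusted p = 0.000614) in MDA-MB-231 and by -1.66 (SE 0.10, adjusted p = 4e-05) in T47D, and the difference of 0.61 (SE 0.14, adjusted p = 0.0160) was lost without T47D shCtrl replicate 2 (0.0539), T47D shXBP1 replicate 1 (0.0642) or T47D shXBP1 replicate 2 (0.0515), as adjusted p. The other SLC1A4 probe sets, at means of 7.81, 7.34, 7.11 and 5.37 over the arrays, gave -1.52, 0.22, -1.04 and -0.27 in MDA-MB-231. In T47D they gave -2.03, -0.52, -2.35 and -0.21, in the same order. Of these, 0.22 and -0.27 in MDA-MB-231 and -0.21 in T47D did not pass. SLC38A2, a sodium-coupled carrier of small neutral amino acids, read 13.12 and 13.01 on the shXBP1 arrays of MDA-MB-231 against 12.62 and 12.52 on its shCtrl arrays, and 13.37 and 13.39 against 12.96 and 13.07 in T47D. Here the shXBP1 pair was the higher in both lines. It rose by 0.50 (SE 0.09, adjusted p = 0.00934) in MDA-MB-231 and by 0.37 (SE 0.09, adjusted p = 0.0183) in T47D, the T47D call being lost without T47D shCtrl replicate 1 (0.107), T47D shXBP1 replicate 1 (0.0859) or T47D shXBP1 replicate 2 (0.0999). At the probe set left when those ending in _x_at are dropped it stood at 0.36 in MDA-MB-231 (adjusted p = 0.0849) and 0.63 in T47D (adjusted p = 0.00578).

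The partners of the heavy chain SLC3A2 parted in T47D. SLC7A11, the light chain that imports cystine in exchange for glutamate, read 8.35 and 8.29 on the shXBP1 arrays of MDA-MB-231 against 8.83 and 8.54 on its shCtrl arrays, and 10.68 and 10.72 against 9.75 and 9.81 in T47D. In T47D the shXBP1 pair was the higher and in MDA-MB-231 the lower, and neither pair overlapped its shCtrl pair. SLC7A11 stood at -0.37 (SE 0.11, adjusted p = 0.0606) in MDA-MB-231 and rose by 0.92 (SE 0.11, adjusted p = 0.000657) in T47D, with a difference of -1.29 (SE 0.16, adjusted p = 0.00113). Its other probe sets, at means of 8.10 and 6.51 over the arrays, both fell in MDA-MB-231, by 0.57 and 1.29, and gave 0.92 and -0.25 in T47D. SLC7A11 read as the mean of its probe sets passed in both lines, at -0.75 (adjusted p = 0.00133) in MDA-MB-231 and 0.53 (adjusted p = 0.00284) in T47D. SLC7A5, the light chain that imports leucine and other large neutral amino acids, read 13.42 and 13.59 on the shXBP1 arrays of MDA-MB-231 against 13.92 and 13.78 on its shCtrl arrays, and 11.88 and 11.87 against 12.95 and 13.00 in T47D. The T47D shXBP1 pair stood lowest, over 1 below its shCtrl pair. SLC7A5 stood at -0.34 (SE 0.10, adjusted p = 0.0514) in MDA-MB-231 and changed by -1.10 (SE 0.10, adjusted p = 0.000174) in T47D, with a difference of 0.76 (SE 0.14, adjusted p = 0.00644). SLC3A2 itself stood at -0.02 in MDA-MB-231 (adjusted p = 0.937) and rose by 0.43 in T47D (adjusted p = 0.0160), a call lost without T47D shCtrl replicate 1 (0.101) or T47D shXBP1 replicate 1 (0.117). In MDA-MB-231 the change passed for SLC7A11 without MDA-MB-231 shCtrl replicate 2 (0.0256) and for SLC7A5 without MDA-MB-231 shXBP1 replicate 2 (0.0443). The arginine and lysine carrier SLC7A1 (-0.20 in MDA-MB-231 and 0.35 in T47D), the glutamine carrier SLC1A5 (0.16 and -0.50) and the glycine carrier SLC6A9, dim at 4.47 to 4.77 on every array, did not pass. In MDA-MB-231 SLC7A1 passed with the mean over probe sets, at -0.39 (adjusted p = 0.0409). In T47D SLC7A1 passed without MDA-MB-231 shCtrl replicate 1 (0.0374) or MDA-MB-231 shCtrl replicate 2 (0.0374), and SLC1A5 without T47D shCtrl replicate 1 (0.0188), MDA-MB-231 shXBP1 replicate 1 (0.0494) or MDA-MB-231 shXBP1 replicate 2 (0.0494). Their differences between the lines also passed without MDA-MB-231 shCtrl replicate 2 (0.0209) for SLC7A1 and without T47D shCtrl replicate 1 (0.0263) for SLC1A5.

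Of the 12 tRNA genes, more rose than fell in each line at the brightest probe set, but in MDA-MB-231 this hung on the choice of probe set. In MDA-MB-231 3 rose (TARS1, WARS1 and NARS1), 1 fell (EPRS1) and 8 did not pass, and in T47D 6 rose (WARS1, AARS1, SARS1, YARS1, GARS1 and TARS1), 1 fell (CARS1) and 5 did not pass. The median change was 0.18 in MDA-MB-231 and 0.26 in T47D. At the brightest probe set 8 of the 12 had a positive change in both lines, whether or not it passed, beside 5338 of all 19775 genes. With the mean over probe sets 4 rose and 4 fell in MDA-MB-231, with a median of -0.10, and 6 rose and 2 fell in T47D, with a median of 0.24. The change was then positive for 4 of the 12 in MDA-MB-231 and for 7 in T47D. WARS1, the tryptophan enzyme, read 10.80 and 10.77 on the shXBP1 arrays of MDA-MB-231 against 10.35 and 10.24 on its shCtrl arrays, and 11.81 and 11.67 against 10.42 and 10.48 in T47D. The shXBP1 pair was over the shCtrl pair in each line, most of all in T47D. WARS1 rose by 0.49 (SE 0.09, adjusted p = 0.0103) in MDA-MB-231 and by 1.28 (SE 0.09, adjusted p = 7.3e-05) in T47D, and the difference was -0.80 (SE 0.13, adjusted p = 0.00384). TARS1, for threonine, read 13.42 and 13.38 on the shXBP1 arrays of MDA-MB-231 against 12.87 and 12.83 on its shCtrl arrays, and 11.98 and 11.94 against 11.62 and 11.70 in T47D. All MDA-MB-231 arrays lay over the T47D arrays, with the shXBP1 pair on top in each line. TARS1 rose by 0.55 (SE 0.08, adjusted p = 0.00399) in MDA-MB-231 and by 0.30 (SE 0.08, adjusted p = 0.0309) in T47D. AARS1, for alanine, read 11.08 and 11.05 on the shXBP1 arrays of MDA-MB-231 against 10.79 and 10.67 on its shCtrl arrays, and 12.22 and 12.17 against 11.59 and 11.78 in T47D. Its pairs did not overlap in either line, and the T47D arrays were all higher. AARS1 stood at 0.34 (SE 0.10, adjusted p = 0.0540) in MDA-MB-231 and rose by 0.50 (SE 0.10, adjusted p = 0.00630) in T47D. The WARS1 call in MDA-MB-231 was lost without MDA-MB-231 shCtrl replicate 2 (0.0526), and the TARS1 call in T47D without any 1 T47D array (adjusted p = 0.0661 to 0.158).

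YARS1, for tyrosine, read 12.20 and 12.11 on the shXBP1 arrays of MDA-MB-231 against 12.06 and 12.06 on its shCtrl arrays, and 11.62 and 11.58 against 11.14 and 11.20 in T47D. Only in T47D was there a gap of over 0.3 between the pairs. YARS1 stood at 0.09 (SE 0.08, adjusted p = 0.517) in MDA-MB-231 and rose by 0.43 (SE 0.08, adjusted p = 0.00658) in T47D, a call lost without T47D shXBP1 replicate 1 (0.0539). NARS1, for asparagine, read 12.46 and 12.62 on the shXBP1 arrays of MDA-MB-231 against 12.07 and 12.11 on its shCtrl arrays, and 12.83 and 12.77 against 12.91 and 12.97 in T47D. The pairs were apart in both lines and ordered oppositely. NARS1 rose by 0.45 (SE 0.09, adjusted p = 0.0134) in MDA-MB-231 and stood at -0.14 (SE 0.09, adjusted p = 0.311) in T47D, with a difference of 0.60 (SE 0.13, adjusted p = 0.0129). The NARS1 rise was lost without MDA-MB-231 shCtrl replicate 1 (0.0653) or MDA-MB-231 shXBP1 replicate 2 (0.0507) and its difference without T47D shXBP1 replicate 2 (0.0570). SARS1, for serine, rose in T47D by 0.50 (adjusted p = 0.00453) and GARS1, for glycine, by 0.40 (adjusted p = 0.00845, lost without T47D shXBP1 replicate 1 (0.0736)). In MDA-MB-231 these stood at 0.27 (adjusted p = 0.0817) and 0.28 (adjusted p = 0.0595).

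At the brightest probe set CARS1 fell in T47D and EPRS1 in MDA-MB-231. CARS1, for cysteine, read 11.87 and 11.75 on the shXBP1 arrays of MDA-MB-231 against 12.02 and 12.18 on its shCtrl arrays, and 10.93 and 11.02 against 11.76 and 11.77 in T47D. Its T47D shXBP1 pair was the lowest of the 4 groups, and the MDA-MB-231 pairs did not overlap. CARS1 stood at -0.28 (SE 0.10, adjusted p = 0.0866) in MDA-MB-231 and changed by -0.79 (SE 0.10, adjusted p = 0.000675) in T47D, and the difference of 0.51 (SE 0.14, adjusted p = 0.0304) was lost without any of 6 arrays, all but MDA-MB-231 shCtrl replicate 2 and shXBP1 replicate 2 (adjusted p = 0.0699 to 0.112). All 3 other CARS1 probe sets fell in MDA-MB-231, by 0.53, 0.97 and 1.28, and with the mean over probe sets CARS1 passed there, at -0.77 (adjusted p = 0.00425). EPRS1, which charges both glutamate and proline tRNA, read 11.56 and 11.79 on the shXBP1 arrays of MDA-MB-231 against 12.41 and 12.30 on its shCtrl arrays, and 12.08 and 11.99 against 12.11 and 11.88 in T47D. The MDA-MB-231 pairs were apart by over 0.5, and the T47D pairs overlapped. EPRS1 changed by -0.68 (SE 0.12, adjusted p = 0.00764) in MDA-MB-231 and stood at 0.04 (SE 0.12, adjusted p = 0.844) in T47D, and the difference of -0.73 (SE 0.17, adjusted p = 0.0177) was lost without T47D shCtrl replicate 2 (0.0588), T47D shXBP1 replicate 1 (0.0697), MDA-MB-231 shCtrl replicate 1 (0.0545) or MDA-MB-231 shXBP1 replicate 1 (0.0514), and was -0.47 with the mean over probe sets. IARS1, for isoleucine, LARS1, for leucine, and XPOT, which carries tRNA out of the nucleus, passed in neither line, with changes of -0.09, 0.10 and 0.09 in MDA-MB-231 and -0.15, 0.23 and 0.19 in T47D.

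The choice of probe set weighed on the tRNA genes in MDA-MB-231. Of the 12, 8 had other single-symbol probe sets, 13 in all, of which 1 rose and 8 fell in MDA-MB-231, whereas 3 rose and 3 fell in T47D. The share over the other probe sets of all genes was not taken. These counts, and those of the 41 targets below, thus cannot be called particular to the genes listed. The other TARS1 probe set, at a mean of 7.83 over the arrays, gave -0.91 in MDA-MB-231 and 0.74 in T47D, so that the probe sets of TARS1 went opposite ways in MDA-MB-231. Its difference between the lines was 0.26 at the brighter one and -0.70 with the mean of both, and that of CARS1 was -0.16 with the mean. For YARS1 the other probe set (mean 7.75) gave -1.18 in MDA-MB-231 and 0.19 in T47D, and for EPRS1 the second brightest (mean 11.88) stood at 0.18 and did not pass in MDA-MB-231. With the mean over probe sets TARS1 stood at -0.18 in MDA-MB-231 (adjusted p = 0.247), YARS1 at -0.54 (0.00416), LARS1 at -0.29 (0.0377), SARS1 at -0.12 (0.395) and XPOT at -0.06 (0.719), all 5 with the opposite sign to that at the brightest. In T47D XPOT turned to -0.27 (adjusted p = 0.0495) and TARS1 rose by 0.52. The difference between the lines then passed for YARS1 (-0.85), TARS1, SARS1 (-0.51) and LARS1 (-0.47). Over all 41 targets, 25 had other probe sets, 42 in all, of which 2 rose and 18 fell in MDA-MB-231 and 10 rose and 9 fell in T47D. The lower calls in MDA-MB-231 numbered 13 with the mean over probe sets and 8 with the brightest.

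The changes of the tRNA genes can be set beside their C/EBP-ATF matches. The 5 measured genes with a match (AARS1, CARS1, IARS1, NARS1 and TARS1) had median changes of 0.34 in MDA-MB-231, where 2 rose and 0 fell, and -0.14 in T47D, where 2 rose and 1 fell. The 5 with a promoter in the table and no match had medians of 0.27 in MDA-MB-231 (1 rose, 1 fell) and 0.40 in T47D (3 rose, 0 fell). CARS1 and TARS1, whose printed matches share 8 letters at the gene's start, changed in opposite directions in T47D. These numbers are few and carry no test.

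**Figure D3:**
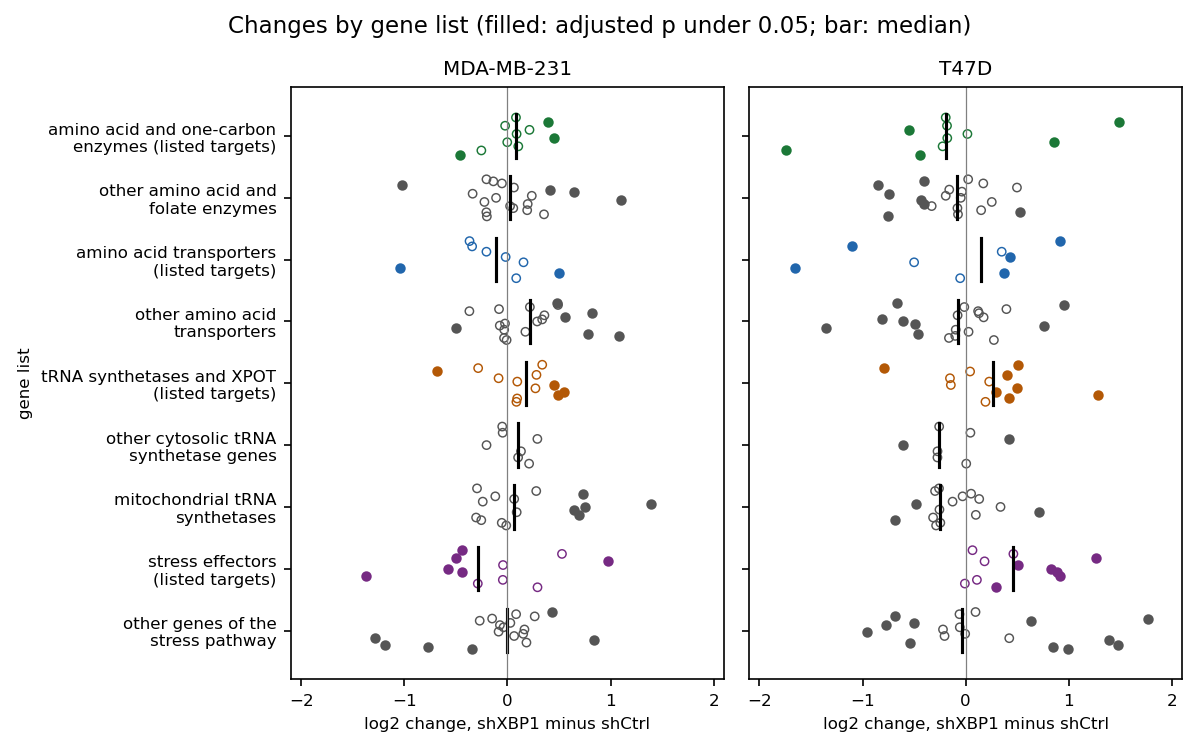
Log2 change with shXBP1 against shCtrl (horizontal axis) for each gene of the 4 target sub-groups (coloured) and of 5 lists of other genes of the pathway (grey), in MDA-MB-231 at left and T47D at right. Filled points passed at an adjusted p under 0.05 and black bars are medians. The median of the effectors is -0.29 in MDA-MB-231 and 0.46 in T47D. Of the 11, 3 lie right of 0 in MDA-MB-231, where 1 of them passed, and 10 in T47D, where 6 passed. Over all 19775 genes, 10867 had a positive change in MDA-MB-231 and 9440 in T47D.

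Other genes of the same processes, outside the target list, were read alongside. Their counts stand beside 17.2% of all genes in MDA-MB-231 (10.6% higher and 6.68% lower) and 29.1% in T47D (15.5% higher and 13.5% lower). Of 7 other cytosolic tRNA synthetase genes, 0 passed limma's test in MDA-MB-231 (2 had an unadjusted p under 0.05), and in T47D RARS1, for arginine, rose by 0.42 (lost without T47D shCtrl replicate 2 (0.0673) or T47D shXBP1 replicate 2 (0.0806), as adjusted p) and VARS1, for valine, fell by 0.61. Their median change was 0.10 in MDA-MB-231 and -0.26 in T47D. Of 15 mitochondrial tRNA synthetase genes, 5 rose and 0 fell in MDA-MB-231, led by LARS2 (1.40) and MARS2 (0.75), and in T47D 1 rose and 2 fell. These were led by PARS2 (0.71, lost without T47D shXBP1 replicate 1 (0.0605)) and VARS2 (-0.68). Of 19 other amino acid transporters, 5 rose and 1 fell in MDA-MB-231, with the lysosomal arginine sensor SLC38A9 at 1.09 (0.64 with the mean over probe sets) and the cationic carrier SLC7A2 at 0.82. In T47D 2 of them rose and 6 fell, with the glutamate carrier SLC1A3 at 0.96 (0.51 with that mean) and SLC36A4 at -1.35. The SLC7A2 call was lost without MDA-MB-231 shCtrl replicate 1 (0.0556), MDA-MB-231 shXBP1 replicate 1 (0.0552) or MDA-MB-231 shXBP1 replicate 2 (0.0520) and at 0.39 with the mean over probe sets (0.138), and the SLC1A3 call without T47D shCtrl replicate 1 (0.0653) or T47D shXBP1 replicate 2 (0.0776). Of 19 other amino acid and folate enzymes, 3 rose and 1 fell in MDA-MB-231 and 1 rose and 6 fell in T47D. The ornithine aminotransferase gene OAT rose by 1.11 in MDA-MB-231, AHCY, which makes homocysteine, fell by 0.75 in T47D, and MTHFD2L, a relative of MTHFD2, stood at -1.03 in MDA-MB-231 and -0.85 in T47D. MTHFD2L passed in both lines at its brightest probe set, and with the mean over probe sets in neither (-0.25 in MDA-MB-231 and -0.16 in T47D, adjusted p = 0.0979 and 0.246). The difference between the lines passed for 6 of the 19 other transporters (31.6%), all higher. It passed for 3 of the 8 listed ones (37.5%), 2 higher and 1 lower. Both shares lie near the 24.8% of all genes and 34.3% of the brighter ones.

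Other genes of the stress pathway were read as well, and some rose and some fell in each line. Of these 18 genes, 33.3% passed in MDA-MB-231 and 61.1% in T47D, beside 17.2% and 29.1% of all genes. ATF4 mRNA read 13.49 and 13.51 on the shXBP1 arrays of MDA-MB-231 against 13.06 and 13.07 on its shCtrl arrays, and 13.16 and 13.09 against 12.96 and 13.09 in T47D. It was bright on all arrays, and only the MDA-MB-231 pairs were clear of each other by over 0.3. ATF4 rose by 0.44 (SE 0.09, adjusted p = 0.0134) in MDA-MB-231, a call lost without MDA-MB-231 shCtrl replicate 1 (0.0616), and stood at 0.10 (SE 0.09, adjusted p = 0.491) in T47D. ATF4 is controlled mostly at translation, and the arrays measure mRNA alone. Of 18 genes of the pathway outside the target list, which are ATF4, the eIF2 kinases, subunits of eIF2 and eIF2B, PPP1R15B, other transcription factors and the mTORC1 restrainers SESN2 and DDIT4, 2 rose and 4 fell in MDA-MB-231 and 6 rose and 5 fell in T47D. EIF2AK3, which encodes PERK, stood at -0.15 (SE 0.10, adjusted p = 0.392) in MDA-MB-231 and rose by 1.77 (SE 0.10, adjusted p = 3.62e-05) in T47D, or by 0.82 with the mean over probe sets. DDIT3, which encodes CHOP, read 10.81 and 10.28 on the shXBP1 arrays of MDA-MB-231 against 11.94 and 11.74 on its shCtrl arrays, and 13.96 and 13.86 against 13.45 and 13.52 in T47D. Its pairs did not overlap in either line, the shXBP1 pair being lower in MDA-MB-231 and higher in T47D. It fell by 1.29 in MDA-MB-231 and stood at 0.42 in T47D (adjusted p = 0.106, or 0.0212 without either MDA-MB-231 shXBP1 array), with a difference of -1.71 (SE 0.24, adjusted p = 0.00193). SESN2 differed by -2.67 (SE 0.19, adjusted p = 0.000194) between the lines, lower in MDA-MB-231 (-1.18) and higher in T47D (1.48). ATF3, by contrast, rose in both, by 0.84 in MDA-MB-231 and 1.40 in T47D. Like VLDLR, CEBPG, PPP1R15A and GDF15, 3 of these 18 (SESN2, DDIT4 and NFE2L2) passed as lower in MDA-MB-231 and higher in T47D. At the brightest probe set 1.70% of all genes did so. DDIT4 and NFE2L2 are named here after their values were seen.

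**Figure D4:**
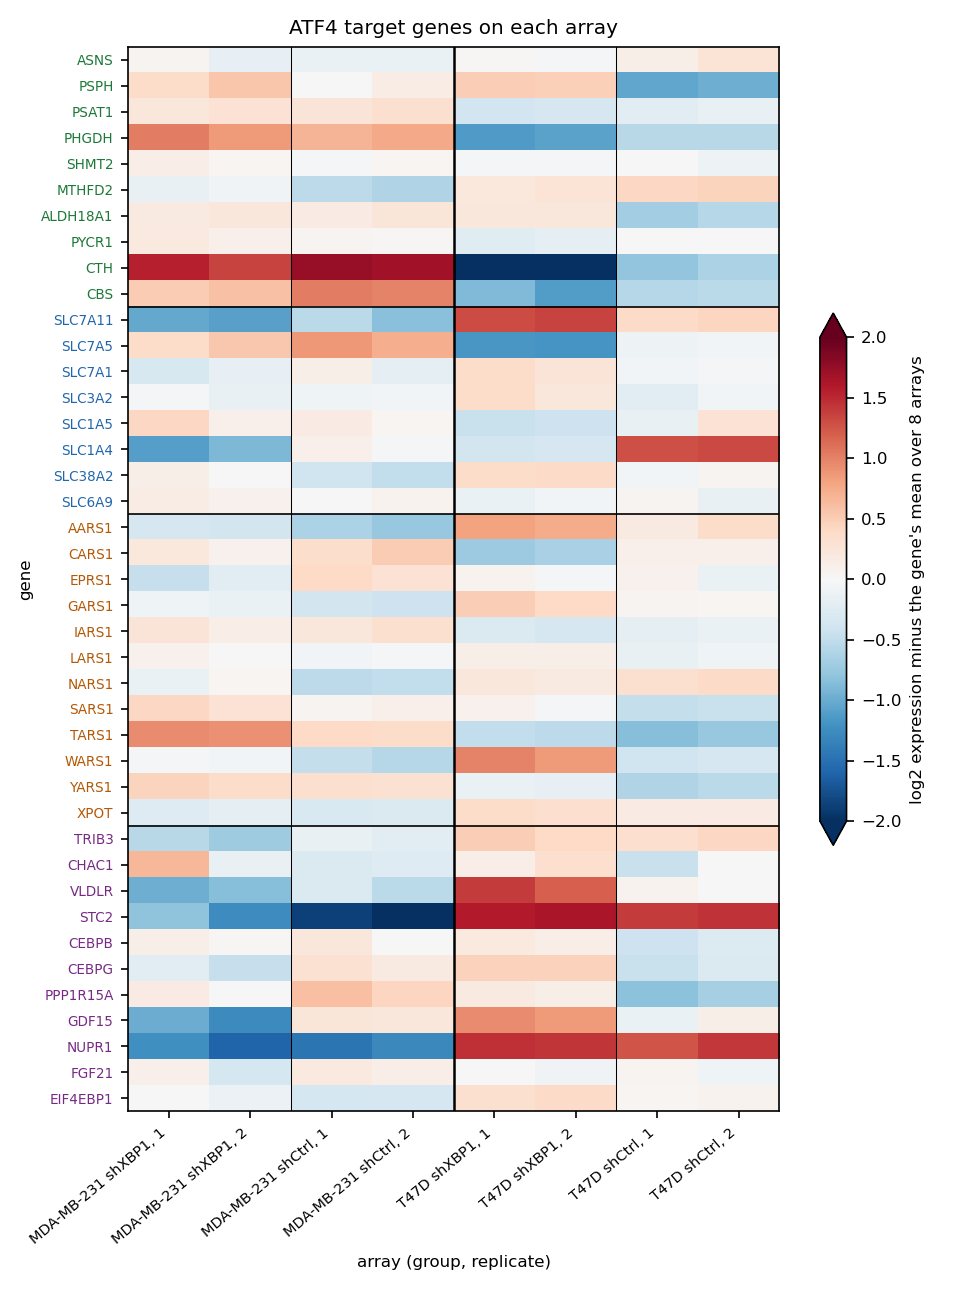
Log2 expression of the 41 targets on each of the 8 arrays, shown as the difference from the gene's mean over the arrays (red above, blue below, colours ending at 2 either way), with groups divided by vertical lines and sub-groups by horizontal lines. Replicates of a group look alike for most genes, and CTH, STC2 and NUPR1 separate the lines whatever the hairpin.

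The lines also differed in their levels. With shXBP1, 30 of the 41 targets differed between MDA-MB-231 and T47D, 12 higher and 18 lower in MDA-MB-231, against 50.8% of all genes (25.9% higher and 25.0% lower) and 67.9% of the brighter ones. With shCtrl, 30 differed, 16 higher and 14 lower in MDA-MB-231, against 49.0% of all genes (23.7% higher and 25.2% lower) and 66.4% of the brighter ones. The share of the targets, 73.2% with each hairpin, was near that of the brighter genes, which are all those over the median of all probe sets. No set of genes matched to the targets in brightness was taken. With shCtrl 6 of the 10 enzymes were higher in MDA-MB-231 and 2 lower. CTH averaged 11.53 ± 0.04 in MDA-MB-231 and 9.10 ± 0.11 in T47D (SD, n = 2 each), a difference of 2.43 (SE 0.14, adjusted p = 2.55e-06), and CBS and PHGDH were higher in MDA-MB-231 by 1.56 and 1.27. The transporters differed both ways with shCtrl, SLC7A5 being higher in MDA-MB-231 by 0.87 and SLC7A11 and SLC1A4 standing at -1.09 (-0.67 with the mean over probe sets) and -1.26. Among the tRNA genes 6 were higher and 4 lower, with TARS1 at 1.19, YARS1 at 0.89 and AARS1 at -0.96. STC2 averaged 7.46 ± 0.18 in MDA-MB-231 and 10.88 ± 0.04 in T47D with shCtrl (SD, n = 2 each), the widest gap of the 41 targets, and NUPR1 stood at -2.71.

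For 7 of the 11 effectors the gap differed between the hairpins by the test of the difference, and for NUPR1, EIF4EBP1, CHAC1 and FGF21 that test did not pass (adjusted p = 0.385 to 0.996). With shXBP1 7 of the 11 were lower in MDA-MB-231 and 0 higher, with a median difference of -0.80, while with shCtrl 5 were lower and 3 higher, with a median of -0.05. PPP1R15A differed by -0.07 (SE 0.11, adjusted p = 0.659) with shXBP1 and by 1.26 (SE 0.11, adjusted p = 2.61e-05) with shCtrl. GDF15 differed by -2.04 (SE 0.13, adjusted p = 4.19e-06) with shXBP1 and by 0.25 (SE 0.13, adjusted p = 0.151) with shCtrl, and the first was 0.31 (adjusted p = 0.0421) at a dim probe set. GDF15 at the mean of its probe sets differed by -0.58 (adjusted p = 0.00364) with shXBP1 and 0.60 (adjusted p = 0.00305) with shCtrl. CEBPG was lower in MDA-MB-231 with shXBP1 (-0.80, adjusted p = 0.000480, or -0.52 with the mean over probe sets) and higher there with shCtrl (0.61, adjusted p = 0.00235). Among the enzymes, at the brightest probe set, PSPH and ALDH18A1 showed the same closing of a gap as PPP1R15A, at -0.03 and -0.03 with shXBP1 and 1.07 and 0.83 with shCtrl. For PSPH the gap stayed with the mean over probe sets, at 0.61 (adjusted p = 0.000368) with shXBP1 and 1.71 with shCtrl. For CTH and SLC7A11 the gap was wider with shXBP1, at 3.92 and -2.38 with shXBP1 against 2.43 and -1.09 with shCtrl. These changes in the gap between the lines are the same quantity as the difference of the knockdown effects, whose tests are given with each gene.

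**Figure D5:**
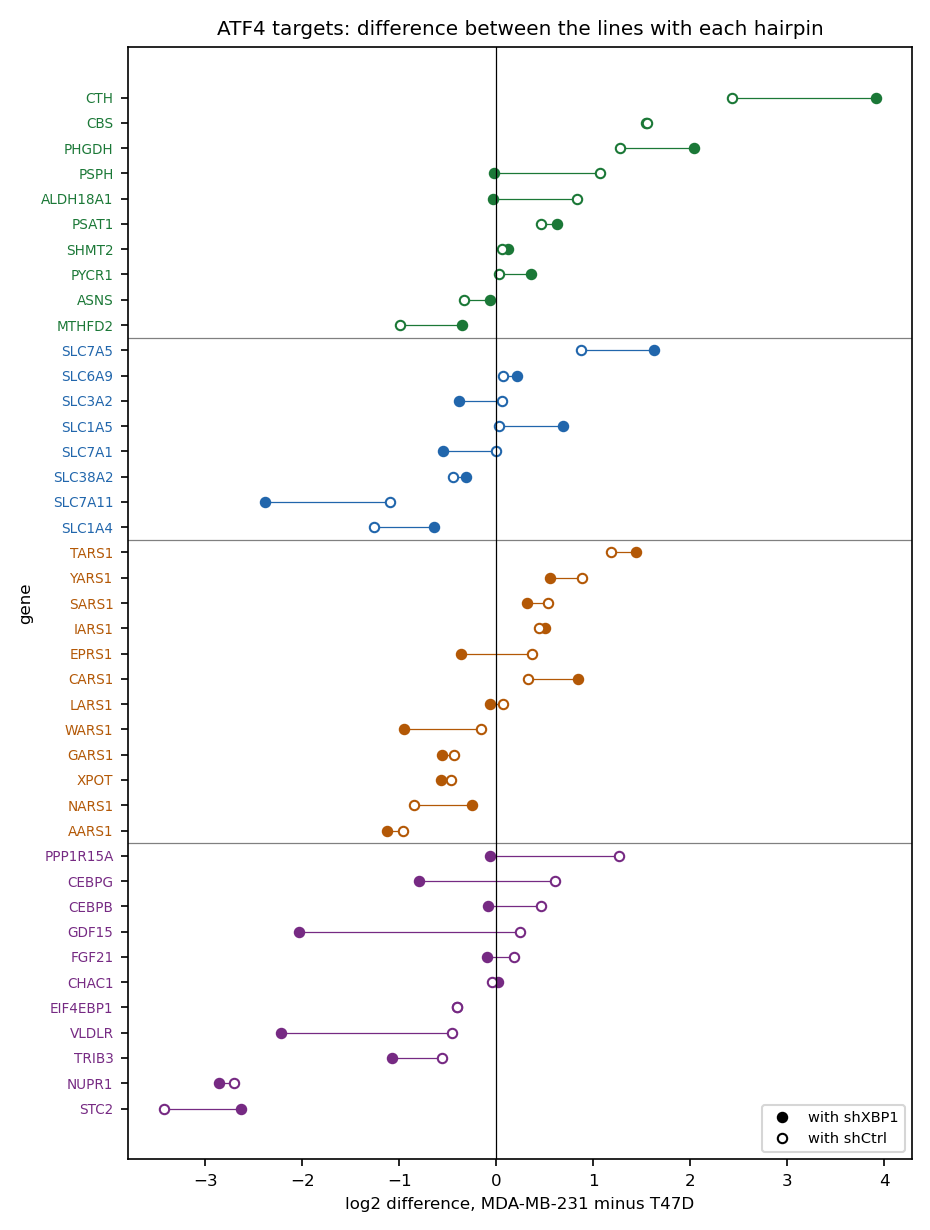
Log2 difference between the lines, MDA-MB-231 minus T47D (horizontal axis), for the 41 targets with shXBP1 (filled) and with shCtrl (open), joined by a line and coloured by sub-group. GDF15, VLDLR, CEBPG and PPP1R15A have long lines that run to the left with shXBP1, CTH and SLC7A5 have lines that run to the right, and CBS, NUPR1 and EIF4EBP1 have hardly any.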

How the data were processed

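The authors deposited log2 expression for every probe set of 8 one-colour Affymetrix arrays. These log2 values came from RMA in affy 1.30.0, per the submitters' processing notes, that is, after background correction, quantile normalization and summary of the probes of a set. The sources used here do not say which arrays were normalized together. The values ran from 2.754 to 15.609, with array medians between 5.871 and 5.911, and were used as deposited. They carry no detection calls, and changes of dim genes are understated.

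Of 54675 probe sets, 41097 carried 1 symbol in the supplied annotation, 1801 several and 11777 none here or were controls. Each of 19775 genes was read at its brightest single-symbol probe set. Groups came from the labels. In R 4.3.3 with limma 3.58.1 (lmFit, eBayes) 1 model held the means of all 4 groups, with two-sided tests and Benjamini-Hochberg adjustment over all genes. An adjusted p under 0.05 counted as passed. The number of arrays limits precision, with a median SE of 0.1187 for a knockdown change and 0.1679 for the difference between lines, and the smallest exact permutation p for 2 against 2 arrays is 0.333. The script was tested on simulated data.

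The targets and lists were chosen with earlier results of these data known. Array values were given for XBP1 and for up to 3 passing targets per sub-group and knockdown comparison by size. They were also given for the 3 of the shCtrl lines and the 2 with the smallest p for the difference. For up to 2 genes per other list and knockdown comparison the change was given, and array values for ATF4 and DDIT3. Alternatives were another choice of probe set, normalization, dim-gene filter, variance model, block or arrays in the fit.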

Additional observations from a re-analysis of the deposited data

Results flagged for a closer look

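For 19 of the 41 targets the knockdown effect differed between the lines by limma's test of the difference, MDA-MB-231 effect minus T47D effect, on the log2 scale. It was lower for GDF15 (-2.29), VLDLR (-1.76), CEBPG (-1.41), PPP1R15A (-1.33), CEBPB (-0.55) and TRIB3 (-0.51) among the effectors and higher for STC2 (0.79). Among the enzymes it was lower for PSPH (-1.10) and ALDH18A1 (-0.86) and higher for CTH (1.49), PHGDH (0.76) and MTHFD2 (0.63). For the transporters it was lower for SLC7A11 (-1.29) and higher for SLC7A5 (0.76) and SLC1A4 (0.61). For the tRNA genes it was lower for WARS1 (-0.80) and EPRS1 (-0.73) and higher for NARS1 (0.60) and CARS1 (0.51). Of the 19, 11 kept their call under all alternatives. GDF15 lost its call under 1 alternative, where its dim probe set was read in place of the bright one.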

How the results depend on the processing

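Of the passing targets, 4 of 15 in MDA-MB-231, 14 of 23 in T47D and 11 of 19 for the difference kept their call under every alternative, and between the lines 20 of 30 with shXBP1 and 23 of 30 with shCtrl. In MDA-MB-231 the targets that passed numbered 7, 4 higher and 3 lower, with only that line in the fit, where fewer arrays set the spread. There, 11 were higher with either filter on dim genes or with trend and robust fitting, and 13 lower with the mean over probe sets. Leaving out 1 array gave 8 to 14 in MDA-MB-231 (5 to 7 higher, 3 to 8 lower), 16 to 24 in T47D (10 to 17 higher, 5 to 7 lower) and 13 to 19 for the difference (4 to 8 higher, 8 to 12 lower). In T47D 10 were lower with trend and robust fitting. Deviations of same-numbered arrays were hardly correlated over genes (-0.069 in MDA-MB-231 and 0.002 in T47D). So few arrays per group cannot show whether same-numbered samples were handled together, and the labels do not say. With the replicate number as a block, 15 targets passed in MDA-MB-231 and 21 in T47D, and with a replicate block within each line 11 (5 lower) and 22. Signs of changes that passed under either reading turned with the mean over probe sets in MDA-MB-231 for LARS1 (-0.29), TARS1 (-0.18) and YARS1 (-0.54), in T47D for XPOT (-0.27), in the difference for CARS1 (-0.16) and TARS1 (-0.70), and between the lines with shXBP1 for PSPH (0.61) and MTHFD2 (0.34). Changes that passed under neither reading also turned with that mean, in MDA-MB-231 for SARS1 (-0.12), XPOT (-0.06), ASNS (-0.04) and ALDH18A1 (0.04), in T47D for EPRS1 (-0.06) and SHMT2 (-0.08), in the difference for XPOT (0.22), SLC38A2 (-0.16) and CBS (0.06), and between the lines for LARS1 with shCtrl (-0.09) and ASNS (0.01) and ALDH18A1 (0.08) with shXBP1. With probe sets ending in _x_at left out GDF15 turned to -0.18 in T47D and to 0.31 between the lines with shXBP1, where a dim probe set replaces the bright one. Otherwise the cause was not tested.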
